A study of Caenorhabditis elegans with 2 samples.

Results

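The chaperone and co-chaperone genes of *Caenorhabditis elegans* were taken as all protein-coding genes whose name starts with hsp-, cct-, dnj- or pfd-, plus sti-1. This gave 68 of 19973 protein-coding genes on the nuclear chromosomes. Their promoters were searched for peaks of NHR-85, a nuclear hormone receptor related to mammalian Rev-Erb, in chromatin immunoprecipitation sequencing (ChIP-seq) data. Each gene was counted when the summit (highest point) of a peak lay in its promoter, a window that began 1000 bp before an annotated transcript start and ended 200 bp after it. In the reproducible peak list, cut by the irreproducible discovery rate (IDR), 23 of the 68 genes had a promoter summit (33.8%, 95% Wilson interval 23.7 to 45.7), beside 8.09% of all protein-coding genes. They included the genes for the main cytosolic Hsp90 and Hsp70, the mitochondrial Hsp60 and 1 of the 2 genes for BiP, the Hsp70 of the endoplasmic reticulum (ER). None of the 7 genes listed as strongly heat-inducible was among them, but 4 of these have near-identical promoters in which short reads may not be placed. At 13 of the 23 genes, the summit lay nearer to the start of another protein-coding gene.

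The animals were hermaphrodite larvae of strain OP539, genotype unc-119(tm4063) III; wgIs539, in which wgIs539 is an inserted transgene that makes NHR-85 with GFP and FLAG at its C-terminus. L1 larvae (the stage after hatching), synchronized by starvation after bleaching, were taken 6 h later as whole animals, sonicated and precipitated with an anti-GFP antibody. There was 1 group with 2 biological replicates. No untagged strain, other GFP fusion or heat-shocked group was analysed here, so NHR-85 sites and sites that any GFP precipitation would give cannot be told apart. Peaks come from all cell types together, so the cells that hold a site are unknown. No RNA was measured, and a peak does not show that a gene responds to NHR-85.

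Chaperones bind unfolded or partly folded proteins and help them to fold, assemble or be degraded. Hsp70 proteins work in cycles driven by ATP that J-domain proteins (the dnj genes) start and nucleotide exchange factors such as Hsp110 reset, Hsp90 acts later on signalling proteins and receptors, and the ring-shaped CCT complex folds actin and tubulin handed over by prefoldin (the pfd genes). Heat shock raises a part of these genes through HSF-1, which binds inverted repeats of GAA, while unfolded proteins in the ER or in mitochondria raise others through separate pathways.

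Sequences are shown for the 5 strongest sites, for the weaker sti-1 and for dnj-13, and for promoters without a site, so that the letters under a peak can be read beside its values. All are from the RefSeq copy of the WBcel235 (ce11) assembly, 5′ to 3′ on the strand of the gene or, between a pair of genes, on the plus strand. Capitals mark GAANNTTC or TTCNNGAA, a head-to-head or tail-to-tail pair of the units that HSF-1 binds. Among the promoter summits of the cytosolic chaperone genes, the windows of hsp-90, hsp-1 and sti-1, which reach 50 bp either way from the summit, hold such a pair. So do those of hsp-110, pfd-5, dnj-19 and cct-6, which are not printed. Pairs are more frequent among the sequences printed than among all the chaperone sites, whose counts are given with the motifs.
hsp-90, chrV:14685713-14685813, plus strand: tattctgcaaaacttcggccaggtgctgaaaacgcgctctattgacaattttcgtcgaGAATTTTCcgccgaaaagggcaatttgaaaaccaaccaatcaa
hsp-1, chrIV:17278514-17278614, plus strand: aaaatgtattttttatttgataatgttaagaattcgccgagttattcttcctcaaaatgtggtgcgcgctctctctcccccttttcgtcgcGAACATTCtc
sti-1, chrV:773405-773505, plus strand: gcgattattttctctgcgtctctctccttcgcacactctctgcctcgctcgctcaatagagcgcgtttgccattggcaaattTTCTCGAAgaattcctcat

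The windows at hsp-60, hsp-3 and cct-1, which are 3 of the 5 strongest sites, and at dnj-13 hold no such pair. Those of cct-8 and dnj-9, close to dnj-13 in signal, hold none either and are not printed. The window of hsp-110, also close to dnj-13 in signal, holds both GAANNTTC and TTCNNGAA. The hsp-3 window was shortened where the gene's transcript begins.
hsp-60, chrIII:1619085-1619185, plus strand: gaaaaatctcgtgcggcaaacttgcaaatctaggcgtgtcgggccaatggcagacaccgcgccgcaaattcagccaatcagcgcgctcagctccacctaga
hsp-3, chrX:6092125-6092215, minus strand: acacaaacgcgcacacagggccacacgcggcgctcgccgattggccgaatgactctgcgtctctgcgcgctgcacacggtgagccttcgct
cct-1, chrII:8185153-8185253, plus strand: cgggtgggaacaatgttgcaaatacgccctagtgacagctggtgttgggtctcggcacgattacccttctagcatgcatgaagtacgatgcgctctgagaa
dnj-13, chrII:11545412-11545512, plus strand: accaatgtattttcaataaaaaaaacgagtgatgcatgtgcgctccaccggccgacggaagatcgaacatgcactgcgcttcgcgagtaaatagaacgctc

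For comparison, the stretch between the outer starts of the divergent heat-inducible genes hsp-16.2 and hsp-16.41 holds 3 pairs, of which a pair overlaps its neighbour, and had no IDR summit. The last sequence is the stretch before the start of hsp-4, the other BiP gene, which had no summit in any list.
hsp-16.2 and hsp-16.41, chrV:1804958-1805177, plus strand: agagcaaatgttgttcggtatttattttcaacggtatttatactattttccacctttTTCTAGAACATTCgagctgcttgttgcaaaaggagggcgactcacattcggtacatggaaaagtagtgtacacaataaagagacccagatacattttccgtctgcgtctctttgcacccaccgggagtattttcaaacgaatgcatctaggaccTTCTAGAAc
hsp-4, chrII:7352646-7352845, minus strand: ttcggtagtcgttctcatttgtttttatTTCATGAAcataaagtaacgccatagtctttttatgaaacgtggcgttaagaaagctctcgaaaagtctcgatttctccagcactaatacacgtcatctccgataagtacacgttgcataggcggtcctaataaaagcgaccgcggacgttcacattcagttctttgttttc

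Signals below are the authors' values for each peak, on the scale of their peak caller, and serve to describe and rank peaks within a list. The pooled list joins the reads of both replicates, and the IDR list is its reproducible part. IDR signals ran from 97.2 to 2228, and the 23 chaperone sites from 101.3 to 655.6. Their median was 205.8, beside 169.9 for all 1615 protein-coding genes with an IDR promoter summit. Signals above 500 were seen at 5 of the 23 (21.7%) and at 87 of the 1615 (5.39%). All 23 had a promoter summit in both replicate lists, as did 1609 of the 1615. Most of this follows from how the IDR list was made, since it keeps peaks that agree between the replicates. The signal of replicate 2 divided by that of replicate 1 had a median of 0.992 (range 0.724 to 1.47), beside 0.981 over all protein-coding genes with an IDR summit. It was higher in replicate 1 at 13 genes and in replicate 2 at 10, so neither replicate was the higher one throughout.

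**Figure D1:**
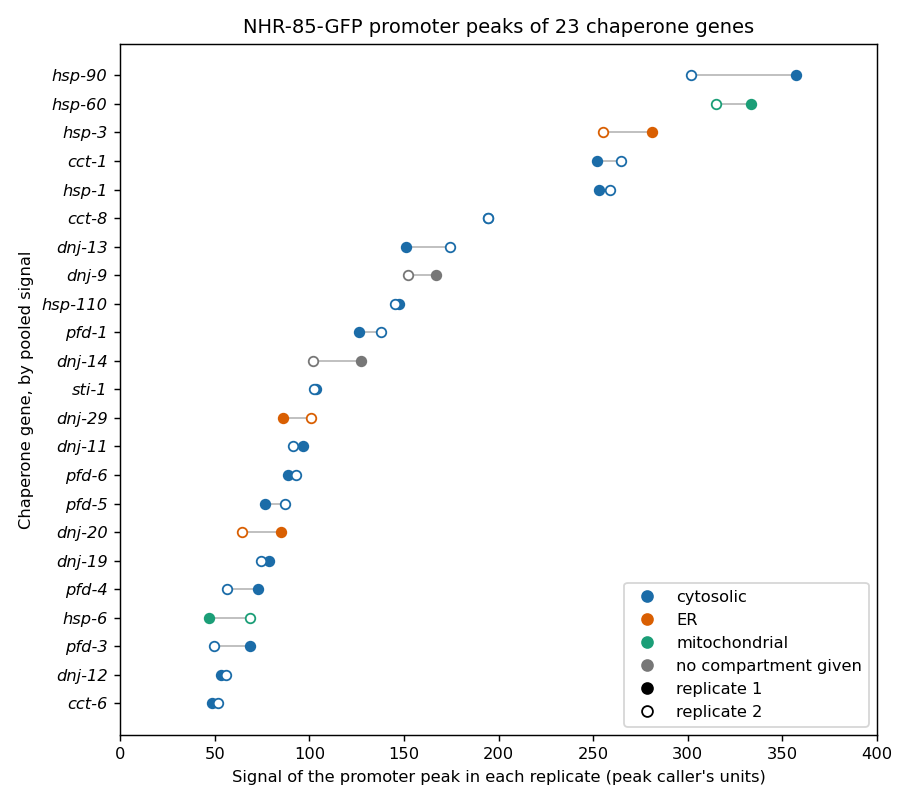
Peak signal in replicate 1 (filled) and replicate 2 (open) for the 23 chaperone genes with an IDR summit in the promoter, in the peak caller's units, ordered by pooled signal and coloured by compartment. The 5 genes from hsp-90 to hsp-1 lie above 250 in both replicates, and the genes at the foot, such as cct-6 and dnj-12, lie near 50.

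Among the genes of the Hsp90 and Hsp70 machinery of the cytosol, hsp-90 encodes the only cytosolic Hsp90 of the worm. Its site was the strongest of all the chaperone genes in the pooled list and in replicate 1, whereas in replicate 2 hsp-60 was higher (315.2). The hsp-90 signal was 357 in replicate 1, 301.6 in replicate 2 and 655.6 in the pooled list, and it ranked 66 in the IDR list of 2404 peaks. The gene has 2 annotated starts, and the summit lay 397 bp upstream of the inner one and 845 bp downstream of the outer one, inside the longer transcript. hsp-1, the constitutive Hsp70, had signals of 253.2 and 259.1, with a pooled signal of 506.9 at 395 bp upstream. hsp-110, whose product belongs to the Hsp110 family of nucleotide exchange factors, had 147.2 and 145, pooled 293.1, at 262 bp upstream (chromosome III, peak from 8446956 to 8447385). sti-1, the homologue of the Hop protein that links Hsp70 to Hsp90, had 103.5 and 102.6, pooled 205.8, at 63 bp upstream. The order hsp-90, hsp-1, hsp-110, sti-1 was the same in both replicates, although the difference between replicates at hsp-90 was larger than the gap between some neighbours in this order.

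The J-domain genes were uneven, with an IDR summit at 8 of 29 (27.6%, beside 8.09% of all protein-coding genes). When each summit went only to its nearest coding start, 3 of 29 were left (10.3%, interval 3.58 to 26.4, beside 6.11%). dnj-13, which encodes a class B J protein that works with Hsp110 and Hsp70, had signals of 150.9 and 174.3, pooled 333.2, at 239 bp upstream (chromosome II, peak from 11545422 to 11545566). dnj-12 and dnj-19 encode class A J proteins of the cytosol. dnj-19 had 78.6 and 74.6, pooled 142.3, and dnj-12 had 53 and 55.8, pooled 103.6, close to the lowest IDR signal. The strongest dnj-12 summit lay 181 bp upstream in replicate 1, but 396 bp in replicate 2 and 398 bp in the pooled list. dnj-11, the homologue of the ribosome-associated mammalian protein MPP11, had 96.6 and 91.1, pooled 189.5. dnj-9 and dnj-14, which were given no compartment, had 167.1 and 152.2 (pooled 331.8) and 127.1 and 102 (pooled 228.6). dnj-14 is the worm form of the cysteine string protein of synaptic vesicles. Among the 19 dnj genes without a compartment these were the 2 with an IDR summit (10.5%, interval 2.94 to 31.4), a share near the 8.09% of all protein-coding genes.

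The CCT ring is built from 8 different subunits, and their promoters carried unequal signals. cct-1 had 252 and 264.7, pooled 522.1, at 240 bp upstream, and cct-8 had 194.5 and 194.2, pooled 393.8, at 447 bp upstream (chromosome IV, peak from 1094276 to 1094439). cct-6 had 48.7 and 51.8, pooled 101.3, which is just inside the IDR list. cct-5 (41.5 and 50.7, pooled 89.6) was just outside it, and the pooled signals of cct-7 and cct-2 were 56.4 and 55.8. cct-7 had no promoter peak in the replicate 1 list and 37.9 in that of replicate 2. cct-2 had 25.8 and 29.6. cct-3 and cct-4 had no promoter summit in any of the 4 lists. The ring thus held 3 of 8 genes in the IDR list (37.5%, interval 13.7 to 69.4, beside 8.09%) and 6 of 8 in the pooled list (beside 19.4%). All 3 IDR summits lay nearer to the start of a neighbour, mig-5, Y55F3AR.2 or alh-9. When each summit went only to its nearest coding start, 0 of 8 were left (interval 0 to 32.4, beside 6.11% of all protein-coding genes).

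Prefoldin, which hands unfolded actin and tubulin to CCT, had 5 of 6 subunit genes in the IDR list (83.3%, interval 43.6 to 97, beside 8.09%). With the nearest coding start only, 4 of 6 were left (66.7%, beside 6.11% of all protein-coding genes). Among them, pfd-1 was kept narrowly, with F01G4.6 on the opposite strand at 308 bp from the summit and pfd-1 at 301 bp. In the replicates the pfd-1 summit lay farther toward F01G4.6, 306 and 327 bp upstream. Non-coding starts were nearer than the coding ones at pfd-1 (42 bp) and pfd-3 (28 bp). The prefoldin signals were lower than those of hsp-90 and cct-1. pfd-1 had 126.2 and 138.1 (pooled 261.3, 301 bp upstream) and pfd-6 had 88.8 and 92.9 (pooled 181.5, 65 bp upstream). pfd-5 had 76.3 and 86.9 (pooled 162.4, 147 bp upstream) and was the chaperone gene with a further IDR summit in its promoter, at 807 bp upstream with a pooled signal of 133.8. pfd-4 had 72.7 and 56.6 (pooled 126.1, 132 bp upstream), and pfd-3 had 68.4 and 49.5 (pooled 117.4, 180 bp upstream). In replicate 2 the summit of pfd-3 lay elsewhere in the same promoter, 36 bp upstream. pfd-2 had none in any list.

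**Figure D2:**
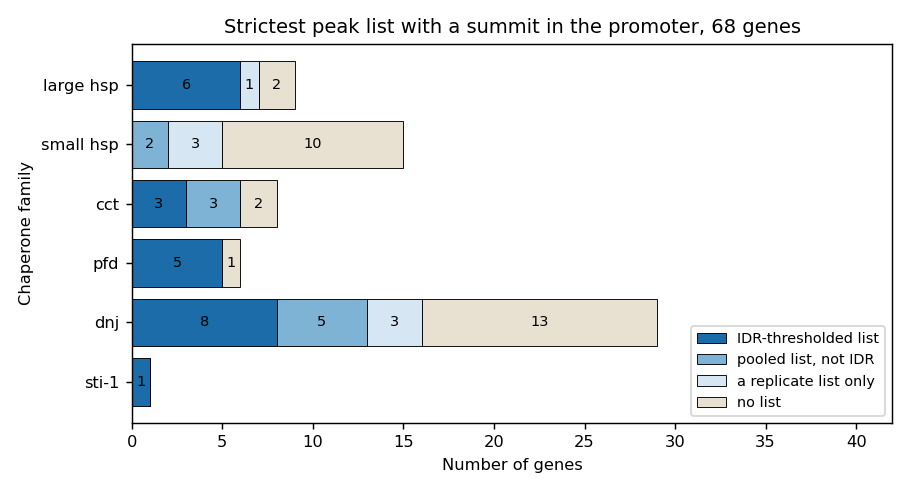
Number of genes in each chaperone family by the strictest peak list that holds a summit in the promoter. The small heat shock genes (15, of which 10 were in no list) have no segment for the IDR list, and prefoldin has 5 of 6 genes in it.

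Across the lists, the pooled list held 33 of the 68 genes (48.5%, beside 19.4% of all protein-coding genes), the replicate 1 list 31 (45.6%, beside 18%) and the replicate 2 list 38 (55.9%, beside 25.7%). Another 10 genes were in the pooled but not the IDR list, and 7 were in a replicate list alone, 5 of them in replicate 2. The remaining 28 had no promoter summit in any list. The strongest pooled signals outside the IDR list belonged to dnj genes and to the CCT genes named above. dnj-22 had the highest, 90.1, with 49.3 and 44.1 in the replicates, and dnj-28 had 79.9, with no replicate 1 peak and 47.9 in replicate 2. dnj-15 had 57.5 (33.1 and 19.1), dnj-7 had 57.4 (none and 38.4) and dnj-10, a mitochondrial J protein gene, had 55.8 (25.7 and 36.1).

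By compartment, 16 of 23 cytosolic genes had an IDR summit (69.6%, interval 49.1 to 84.4), as did 3 of 6 ER genes (50%, interval 18.8 to 81.2) and 2 of 5 mitochondrial genes (40%, interval 11.8 to 76.9), beside 8.09% of all protein-coding genes. With each summit given only to its nearest coding start these counts were 7 (30.4%), 2 (33.3%) and 0, beside 6.11%. With starts of every gene type competing, the cytosolic count was 3 (13%), beside 5.15%. The intervals overlap widely, and no order among the 3 compartments can be read from them. The strongest site of each compartment exceeded 500. Median signals were 197.7 for the cytosolic, 190.5 for the ER and 386.2 for the mitochondrial genes with an IDR summit. With 3 ER and 2 mitochondrial genes, no order in signal can be read either. The intervals cover counting error only, and genes that share a complex or a peak are not independent.

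In the ER, the contrast lay between the 2 BiP genes, whose proteins are close relatives. hsp-3, the one expressed at a high level without stress, had signals of 280.9 and 255.3, pooled 529.1, with the summit 41 bp upstream of its nearest start. hsp-4, which is induced by unfolded proteins in the ER, had no promoter summit in the IDR, pooled or replicate lists. The hsp-4 promoter was 93.5% unique when every run of 31 bases was looked up in the genome, so most of it could be mapped with reads of that length. dnj-29, which encodes a Sec63-like protein of the translocation channel, had 86.3 and 101, pooled 190.5. dnj-20 had 85.1 and 64.3, pooled 154.5, with a summit 511 bp upstream of an inner start but 4495 bp downstream of the outer one. dnj-27, a J protein gene with thioredoxin domains, had none in any list.

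In mitochondria, hsp-60 had signals of 333.6 and 315.2, pooled 653.1, which is almost the level of hsp-90. Its summit lay 607 bp upstream, the farthest of the 23. hsp-6, the mitochondrial Hsp70, had 46.6 and 68.3, pooled 119.4, at 391 bp upstream, and its replicate ratio of 1.47 was the highest of the 23. The 2 genes are both common reporters of the mitochondrial unfolded protein response, and their sites ranked 67 and 1837 of 2404. hsp-75 and dnj-21 had no promoter summit in any list. hsp-10 is not a gene name in the annotation used, but the promoter of hsp-60 is shared with the gene for a mitochondrial 10 kDa heat shock protein, described next to the other shared promoters.

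**Figure D3:**
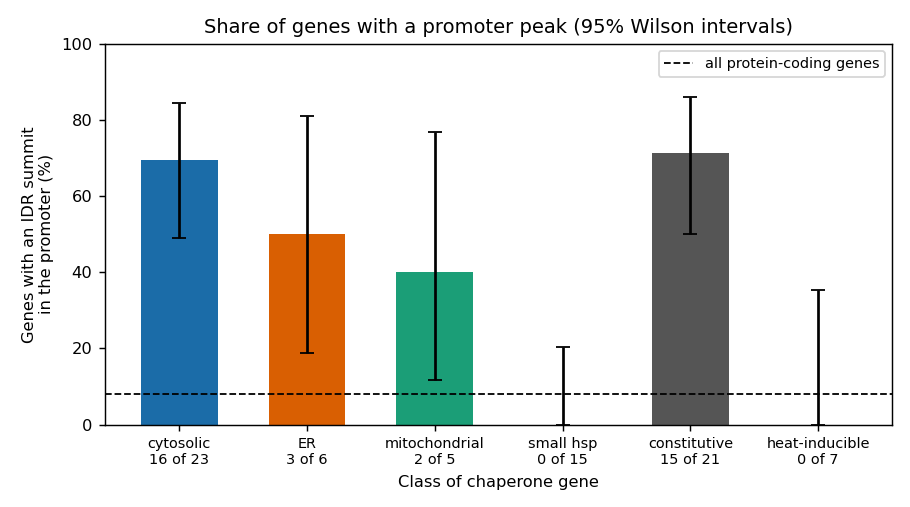
Share of genes with an IDR summit in the promoter, in percent, for chaperone genes by compartment and by induction class, with 95% Wilson intervals and the share of all protein-coding genes as a dashed line. The constitutive class stands at 71.4% and the heat-inducible class at 0.

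The 21 genes listed as constitutive hold the CCT and prefoldin subunits, hsp-1, hsp-3, hsp-6, hsp-60, hsp-90, hsp-110 and sti-1. The classes are lists, and no response to heat was measured. A gene listed as constitutive may still be raised by heat or other stress, and hsp-6 and hsp-60 are reporters of the mitochondrial unfolded protein response. Of the 21 constitutive genes, 15 had an IDR summit (71.4%, interval 50 to 86.2, beside 8.09% of all protein-coding genes). With the nearest coding start only, 7 had one (33.3%, beside 6.11%). The 7 heat-inducible genes, hsp-70 and 6 hsp-16 genes, had no IDR summit, beside 8.09% of all protein-coding genes. A count of 0 in so few genes cannot be told apart from that share. They also had none in the pooled and the replicate 1 list, beside 19.4% and 18% of all protein-coding genes. The replicate 2 list gave 3 of the 7 a peak (42.9%, interval 15.8 to 75, beside 25.7% of all protein-coding genes). That of hsp-70, the heat-inducible counterpart of hsp-1, had a signal of 18.0 at 115 bp downstream of the start. hsp-16.2 and hsp-16.41 shared a peak of 21.2, whose summit lay 345 bp upstream of hsp-16.41 and inside hsp-16.2, 37 bp downstream of its inner start and 124 bp downstream of its outer one. These values are close to the lowest signal of that list, 15.8, and hsp-1 had 259.1 there.

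The hsp-16 genes lie in near-identical copies, which can hide a peak when reads cannot be placed. The promoters of hsp-16.48 and hsp-16.49 held 0% unique runs of 31 bases, and those of hsp-16.1 and hsp-16.11 held 3.5% and 6.75%. Nothing can be read from the absence of a peak at these 4 genes. The promoters of hsp-16.2 (97.4%), hsp-16.41 (96.1%) and hsp-70 (100%) were almost wholly unique, and they had no IDR or pooled summit either. The comparison of constitutive with heat-inducible genes therefore rests on 3 mappable heat-inducible genes, of which a pair shares 1 promoter. By the Wilson interval, 0 of 3 allows a share of up to 56.1%, beside 15 of 20 (75%, interval 53.1 to 88.8) constitutive genes with promoters at least 95% unique.

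All 15 small heat shock genes, the hsp-16 genes included, lacked an IDR promoter summit, beside 8.09% of all protein-coding genes. The 10 of them with promoters at least 95% unique allow a share of up to 27.8%. Small heat shock proteins hold unfolded proteins without using ATP, and many of those outside the hsp-16 group are not raised by heat. hsp-25 and hsp-43 were the 2 with a pooled summit, at 51.2 and 48.3. hsp-12.3 had IDR summits just beyond the window, 709 and 909 bp downstream of its start, with signals of 163.6 and 289.4. Among the other genes near an edge, dnj-2 had one 1095 bp upstream, which is the pfd-4 peak, and hsp-16.48 had one 1996 bp upstream with a signal of 107.7. dnj-20 had a further one 1744 bp upstream with a signal of 166. The dnj-24 summit was 186 bp downstream of the start in replicate 2 (45.4) and therefore counted, but 210 bp downstream in replicate 1 (48.4) and 211 bp in the pooled list (94.1), where it did not.

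Distances from summit to start are bounded by the promoter window, 1000 bp upstream to 200 bp downstream, and were taken from the nearest start. All 23 strongest summits were upstream of that start, as were 95.9% of those of all protein-coding genes with an IDR summit. Those of hsp-90 and dnj-20 lay downstream of an outer start of the same gene. The median distance was 271 bp, beside 241 bp. A distance of at most 500 bp upstream was found at 21 of the 23 (91.3%) and at 73.3% of all such genes. The exceptions were hsp-60 and dnj-20.

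**Figure D4:**
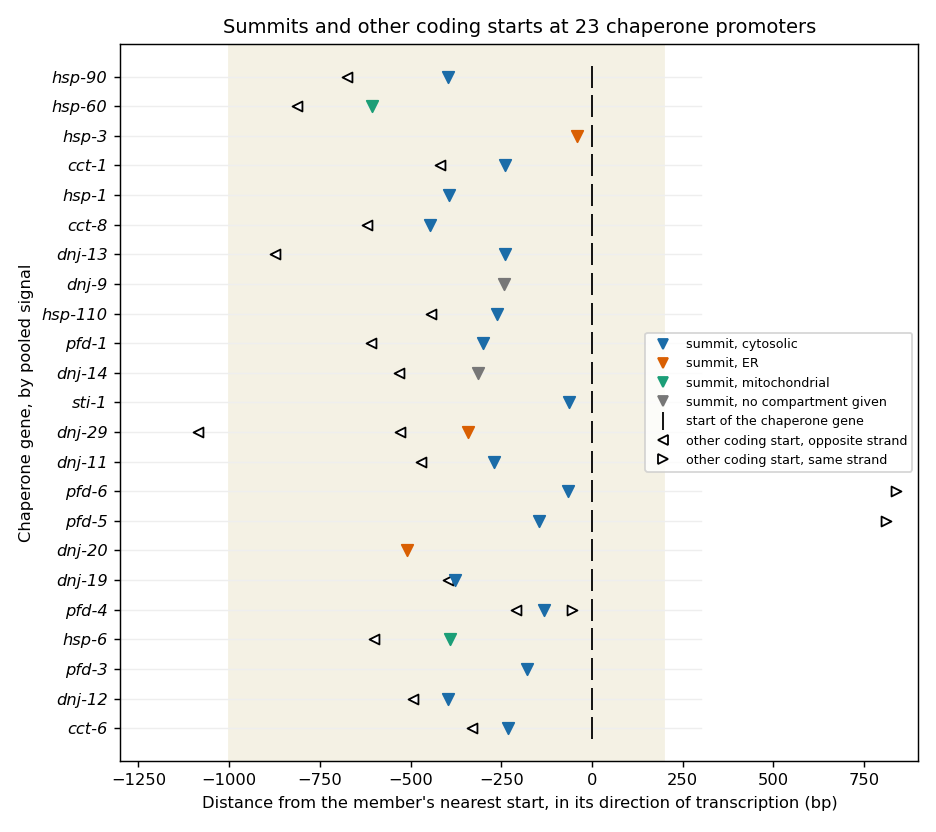
Position of the strongest IDR summit (filled triangles, coloured by compartment) and of the other protein-coding starts whose promoter holds it (open triangles), in bp from the nearest start of each chaperone gene in its direction of transcription, with the promoter window shaded. At most promoters the summit lies between the chaperone gene and a gene on the opposite strand, and at hsp-3, hsp-1, dnj-9, sti-1, dnj-20 and pfd-3 no other coding start is tied to it.

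Most of the summits were shared with another gene. At 17 of the 23 genes (73.9%) the summit also lay in the promoter of another protein-coding gene, beside 46.1% of all genes with an IDR summit. The chaperone start was the nearest coding start in 10 of 23 (43.5%), beside 75.4%. When each summit was given only to its nearest coding start, 10 of the 68 chaperone genes (14.7%) had one, beside 6.11% of all protein-coding genes. Head-to-head layout, with another coding start on the opposite strand within 1000 bp upstream, was found at 16 of the 23 (69.6%), beside 39.8% of all genes with a summit. dnj-20 is counted in this layout through its outer start, away from its summit. Among chaperone genes in this layout 16 of 31 had an IDR summit (51.6%), beside 17.1% of all head-to-head genes, and among the others 7 of 37 had one (18.9%), beside 6%. Whether layout accounts for the difference between chaperone genes and all genes was not tested. Which gene of a pair a site acts on cannot be read from its position.

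Genes that closely follow another on the same strand, as in operons (a gap of at most 500 bp), had an IDR summit in 3 of 14 chaperone cases (21.4%), those of dnj-9, pfd-4 and pfd-6, beside 5.03% of all such genes.

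The neighbours were of many kinds. hsp-60 shared its summit with Y22D7AL.10, the gene for a mitochondrial 10 kDa heat shock protein, the lid of the Hsp60 chamber, whose start was nearer at 206 bp. In mammals the genes of these partners also share a promoter. hsp-110 shared its summit with rpn-3, a subunit gene of the 26S proteasome, at 182 bp, and hsp-90 with C47E8.4, of the FAM50 family, at 278 bp. cct-1 shared with mig-5, a Dishevelled gene of Wnt signalling, at 180 bp, and cct-8 with Y55F3AR.2, a thioredoxin-domain gene, at 174 bp. hsp-6 shared with C37H5.5, a gene of the nucleolar complex, at 209 bp, and dnj-29 with ndua-2, a gene of respiratory complex I, at 187 bp. dnj-12 shared with mtx-1, a metaxin gene of the mitochondrial outer membrane, at 94 bp, and dnj-19 with the nuclear receptor gene nhr-47, at only 19 bp. Sites tied to no other coding gene were those of hsp-1, hsp-3, sti-1, dnj-9, dnj-20 and pfd-3. Of these, the summits of hsp-1 and pfd-3 lay nearer to a non-coding start, at 151 and 28 bp.

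Motifs were counted on both strands within 50 bp of the summit. At least one of GAANNTTC and TTCNNGAA was found at 7 of the 24 chaperone promoter summits (29.2%), beside 6.11% of all 2404 IDR summits. The 7 belonged to hsp-90, hsp-1, hsp-110, sti-1, pfd-5, dnj-19 and cct-6, and hsp-60, hsp-3, cct-1, cct-8 and dnj-13 had none. The median GC content of the windows was 42.6%, beside 44.6% at all IDR summits. The same pairs were common in chaperone promoters with and without a site. In the 300 bp before the outermost start they occurred in 14 of 23 genes with an IDR summit (60.9%), in 24 of 45 without one (53.3%), in 7 of 7 heat-inducible genes and in 32% of all protein-coding genes. The pairs can overlap each other and are a description of the letters, not of a bound factor.

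Of the other motifs, all but CCAAT were rare at these summits. AGGTCA, the core to which many nuclear receptors bind, was found at 1 of the 24, that of pfd-1 (4.17%), beside 6.53% of all IDR summits. CACGTG, an E-box, was found at 0 of 24, beside 8.44%, and TGATAA, bound by intestinal factors such as ELT-2, at 2 (8.33%), beside 8.49%. TGACGTGG, an element that XBP1 and ATF6 bind in mammals, was found at none, beside 0.666%. CCAAT was added after the sequences had been seen, and was found at 9 of the 24 (37.5%), beside 17.1%. It was present in the windows of hsp-90, hsp-60, hsp-3, sti-1 and dnj-13 on either strand.

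Partners and regulators of the chaperones were described with the same promoter window. Of these 29 genes outside the naming rule, 11 had an IDR promoter summit (37.9%, beside 8.09% of all protein-coding genes). Whether the start of a neighbour lay nearer was not examined for them. Their shares can therefore be set only beside the chaperone shares before summits were limited to the nearest start. ER partners held 7 of 11 (63.6%). The strongest were the protein disulphide isomerase genes pdi-2 (183 and 174.3, pooled 363.2) and pdi-3 (133.1 and 164.8, pooled 300.2), with pdi-6 at 190.3 pooled. The calreticulin gene crt-1 had 226.6 and enpl-1, the ER form of Hsp90, 218.2. Of the sensors of unfolded proteins in the ER, atf-6 had 291.3 and pek-1 110.6, whereas ire-1 had none in any list and its target xbp-1 had a pooled signal of 82.7 without an IDR summit. Cytosolic partners held 3 of 12 (25%), the BAG-domain genes unc-23 (315.2) and bag-1 (278.6) and the immunophilin gene fkb-6 (106.6). hsf-1, the heat shock factor itself, had a replicate 2 peak of 16.54 alone. Mitochondrial partners held 1 of 6 (16.7%), the protease gene clpp-1 at 106.9, and a single gene of so few cannot be told apart from the share of all genes. The regulators of the mitochondrial response atfs-1, dve-1 and ubl-5 had pooled summits of 67.5, 74.8 and 49.0 below the IDR threshold.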

How the data were processed

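ChIP-seq peak lists of 2 biological replicates were used. Per the files' descriptions, the authors called peaks on ce11 for each replicate and for the pooled reads against a control alignment, and derived the IDR list from these. Aligner, peak caller, thresholds and read depth were not found in the labels or descriptions. The deposited signal of a peak is on the caller's scale, with no statement on scaling to depth. The lists held 2404 (IDR), 8389 (pooled), 8092 (replicate 1) and 13289 (replicate 2) distinct intervals. The deposited lists on ce10 were not used.

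Transcript starts came from Ensembl release 115 (WBcel235). Gene symbols of 66 members came from it and of 2 from RefSeq, which was also used to tell copies of hsp-16 genes apart. Many worm transcripts are trans-spliced, so an annotated start can lie downstream of the true one. Summits reached by several promoters were counted once per gene, and each gene took its strongest summit. Shares have 95% Wilson intervals. No test was made, since there was 1 group and the members, classes and partner lists were chosen with earlier results of these data known. Genes were named if they had an IDR promoter summit, were heat-inducible, formed the pairs hsp-3 and hsp-4 or hsp-1 and hsp-70, were among the 8 strongest pooled signals outside the IDR list, or had an IDR summit within 1000 bp outside the window. Partners with an IDR summit were also named, and other genes are mentioned to complete a family or list. Runs of 31 bases served as a stand-in for the unknown read length. The assignment of summits to genes was tested on simulated data. Python 3.11.15, pandas 2.3.3 and statsmodels 0.14.6 were used.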

Additional observations from a re-analysis of the deposited data

How the results depend on the processing

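Each of the 6 counts of genes with an IDR promoter summit was recomputed under 11 alternatives. These covered peak list, window, tie between summit and gene, operon-like genes and repeated promoters (the last added after seeing the data). Of 66 values, 54 stayed within 1.5 times the original. This tally does not measure robustness. A heat-inducible count of 0 could not fall, and an ER count of 3 passes at 2 or 4. Cytosolic and constitutive genes overlap, and the change in the share of all protein-coding genes was not scored. Giving a summit only to the nearest coding start moved the share of all protein-coding genes from 8.09% to 6.11%. It lowered the count of all chaperone genes from 23 to 10, of cytosolic genes from 16 to 7, of constitutive genes from 15 to 7 and of mitochondrial genes from 2 to 0. With non-coding starts also competing, these counts were 6, 3, 4 and 0, and the share of all chaperone genes was 8.82%, beside 5.15% of all protein-coding genes. The mitochondrial count was 1 with the stronger 1202 peaks of the IDR list, 1 with a window from 500 bp upstream and 1 with the strongest peaks of replicate 1. Each is 20% of 5 genes, beside 4.34%, 6.31% and 8.04% of all protein-coding genes in that order. The heat-inducible count was 1 with a window from 2000 bp upstream, through hsp-16.48 (14.3%, beside 10.6% of all protein-coding genes). A single gene cannot be told apart from that share. The strongest peaks of either replicate alone, as many as in the IDR list, gave 22 to 23 chaperone genes, 15 to 16 cytosolic, 3 ER, 1 to 2 mitochondrial, 13 to 15 constitutive and 0 heat-inducible genes. The share of all protein-coding genes was then 8.04% with replicate 1 and 7.98% with replicate 2. ER genes stayed within 2 to 4 throughout. Read depth is unknown, so genes below the IDR threshold cannot be called free of NHR-85.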
